A study of Homo sapiens with 5 samples.

Results

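The 8 genes of the interleukin-6 (IL-6) family described here were taken by name from among its ligands and receptors, with earlier results of these data known. No measured value enters the rule. They are the ligand genes IL6, IL11, LIF and OSM and the receptor genes IL6R, IL6ST, LIFR and OSMR. In LX-2 cells, 32 of the 21113 TEAD4 peaks in the deposited list belonged to these genes. A peak was taken when its summit, the base with the highest signal, lay in the body of a gene or within 50 kb of any of its annotated transcription start sites (TSSs, GENCODE release 44, genome build hg38). LX-2 is an established human hepatic stellate cell line that the study used as its model of myofibroblasts. The cells had received only the solvent DMSO, in all samples. Chromatin was cross-linked and immunoprecipitated with an antibody against TEAD4 in 3 samples, and 2 further samples were input chromatin. The authors combined TEAD4 replicates 1 and 3 in 1 list of peaks and left out replicate 2. The study's methods state that only replicates 1 and 3 agreed well enough in the irreproducible discovery rate (IDR) analysis. No peak therefore has a value per replicate, and no spread between replicates can be given. The list gives positions and signal values of peaks, and expression of the genes was not measured in it. The label of the cells could therefore not be checked against marker genes.

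Cytokines of the IL-6 family act on cells through gp130, the shared signal transducing receptor encoded by IL6ST. IL-6 and IL-11 first bind their own receptors, which then recruit gp130, whereas LIF signals through LIFR with gp130, and oncostatin M (encoded by OSM) through OSMR or LIFR with gp130. The receptors activate JAK kinases and the transcription factor STAT3. In liver, IL-6 is best known for the acute phase response of hepatocytes, and IL-11 and oncostatin M are studied in fibrosis. TEAD4 is a DNA-binding partner of the YAP1 co-activator and recognises the motif ACATTCC.

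All 8 genes had at least 1 TEAD4 peak, where 56.2% of 20033 protein-coding genes had one by the same rule. The peaks were unevenly shared, with 12 at LIFR, 7 at OSMR, 5 at LIF, 3 at OSM, 3 at IL6ST, 2 at IL11, 2 at IL6R and 1 at IL6. The 3 peaks of OSM were also peaks of LIF, which brings 35 pairs of gene and peak to 32 peaks. The receptor genes held 24 of them and the ligand genes 8. The stretch searched for a gene, its window, was at least 147.4 kb long at each receptor gene (shortest at IL6ST). It was at most 101.4 kb long at each ligand gene (longest at IL6), and the windows of LIF and OSM overlapped. The counts of 24 and 8 are therefore not like for like. LIFR, OSMR and LIF had 5 or more peaks each, as did 7.19% of protein-coding genes, and a median protein-coding gene had 1. Per 100 kb of window, LIFR had 5.48 summits, LIF 5.00 and OSMR 3.75, so that LIF stood above OSMR by density. Of protein-coding genes, 1.52% were as dense as LIF or denser, and 4.51% as dense as OSMR or denser. With one list, the order of neighbouring genes in these counts could not be set against a spread between replicates.

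The sequences shown here carry the motifs found in the peaks, in hg38 on the plus strand, 5′ to 3′, in lower case with each motif in capitals. The TEAD motif was read as ACATTCC, or GGAATGT on the other strand, and the motif of AP-1, a dimer of FOS and JUN proteins, as TGACTCA, or TGAGTCA on the other strand. Matches were counted within 100 bp of a summit. Each sequence holds the summit and all matches with 10 bases beside them. The EGFLAM sequence is the exception, cut to 30 bases around its match because the summit lies in a UTR.
LIF, distal peak (chr22:30207045-30207119): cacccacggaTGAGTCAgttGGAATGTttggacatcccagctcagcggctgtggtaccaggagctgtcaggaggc
IL6ST, summit inside the gene (chr5:55994627-55994663): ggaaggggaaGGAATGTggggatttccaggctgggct
IL6ST, summit before the gene (chr5:55995251-55995299): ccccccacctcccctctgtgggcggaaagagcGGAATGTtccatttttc
LIFR, intron (chr5:38501054-38501100): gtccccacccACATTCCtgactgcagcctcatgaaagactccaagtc
LIFR, intron near the outermost start (chr5:38607603-38607670): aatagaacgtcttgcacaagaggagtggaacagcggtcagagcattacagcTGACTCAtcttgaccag
LIFR, peak at EGFLAM (chr5:38464376-38464405): ctctccttcccTGACTCAtgacactcttcc
OSMR, upstream, AP-1 (chr5:38806925-38807015): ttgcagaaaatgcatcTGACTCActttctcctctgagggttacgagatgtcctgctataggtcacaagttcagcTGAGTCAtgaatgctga
OSMR, upstream, TEAD (chr5:38808413-38808447): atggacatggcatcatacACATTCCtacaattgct
These are the strongest motif-bearing peak of each gene that has one and every motif-bearing peak within 2.5 kb of a TSS, to which the OSMR peak with the TEAD motif was added after its values were seen. The strongest of the 32 peaks, in an intron of OSMR, held neither motif, and the bases around its summit are shown for comparison, also a choice made after its value was seen.
OSMR, intron (chr5:38854230-38854330): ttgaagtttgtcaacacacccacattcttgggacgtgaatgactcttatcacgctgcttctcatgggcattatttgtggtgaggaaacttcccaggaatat

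**Figure D1:**
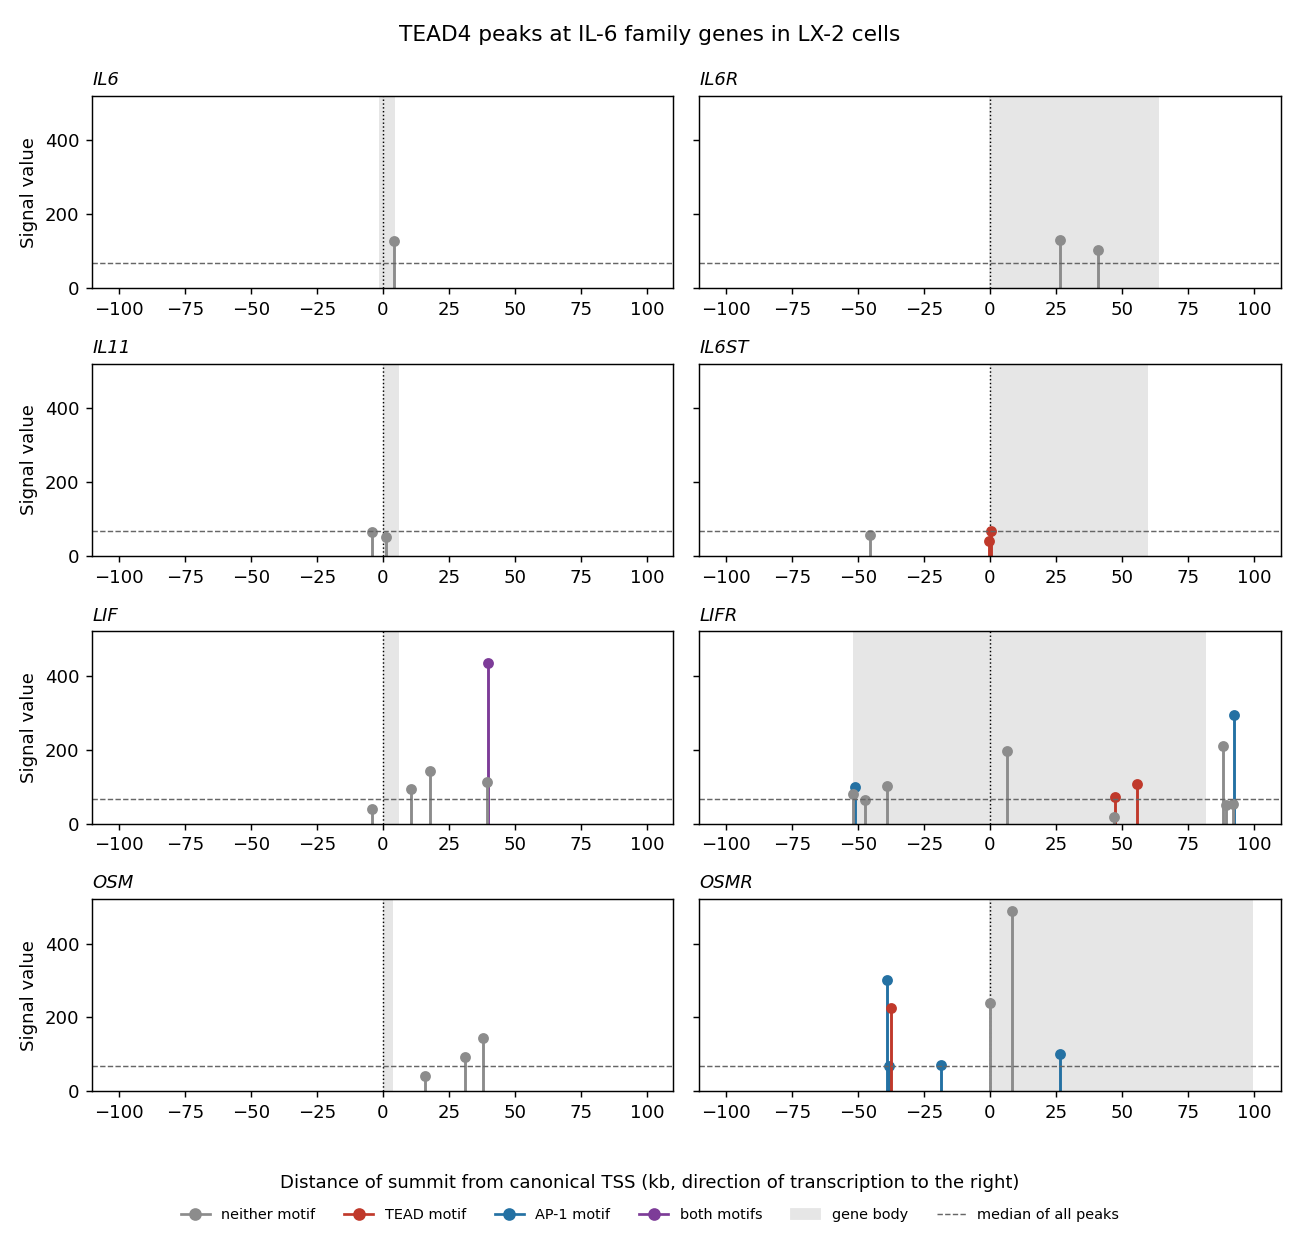
Position and signal value of the TEAD4 peaks at each of the 8 genes. The x axis is the distance of the summit from the canonical TSS in kb, with transcription to the right, the y axis is the signal value of the peak, colours give the motif within 100 bp of the summit, shading is the gene body and the dashed line is the median of all peaks (68.1). The strongest peaks stand 8.27 kb downstream of the OSMR start (488.6) and 39.7 kb downstream of the LIF start (434.7), and the OSM panel shows 3 peaks that also appear in the LIF panel.

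Among the ligand genes, IL6 (chromosome 7, 22725884 to 22732002, plus strand) had a single peak. Its summit at 22731463 lay in coding sequence of IL6 itself, 4263 bp downstream of the canonical TSS, and its signal value was 127.7. The summit was 4223 bp from the closest annotated TSS of IL6 and 3850 bp from a TSS of STEAP1B, the closest TSS of a protein-coding gene. No peak was listed within 2.5 kb of an IL6 TSS. Only the placement inside the gene tied this peak more closely to IL6 than to its neighbour.

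IL11 (chromosome 19, 55364382 to 55370463, minus strand), which codes for a cytokine that fibroblasts can secrete, had 2 peaks of low signal value. One summit (55369327, signal value 51.3) lay in an intron, 1136 bp downstream of the canonical TSS and 86 bp upstream of the start of a shorter transcript. The other summit (55374534, signal value 64.7) lay 4071 bp upstream, in sequence between genes, and was closer to a TSS of TMEM190 (2292 bp). The windows of 100 bp on each side of these summits were rich in G and C, with 80.1% and 69.7% against a median of 44.8% over all peaks. Neither held a TEAD or an AP-1 motif. IL11 had no peak once those at or below the list's median signal value were dropped.

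LIF and OSM lie side by side on the minus strand of chromosome 22, and their canonical starts are 20.1 kb apart. LIF (30240453 to 30246759) had 5 peaks, of which 4 lay downstream of the gene and 1 upstream, and none lay in the gene body or within 2.5 kb of a TSS. The farthest interval (30206898 to 30207390) held 2 summits. The stronger one (30207109, in an exon of a lncRNA gene) had a signal value of 434.7, rank 226 of the list, and the other, 200 bp away, had 111.7. The stronger peak was the only one of the 32 with both motifs, and the sequence above shows them 3 bases apart. The next LIF summits had signal values of 143.7 at 17.9 kb and 94.2 at 10.8 kb downstream of a TSS, and the upstream summit, 4189 bp away, had 40.7. LIF was the gene with the closest protein-coding TSS for all 5.

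OSM (30262829 to 30266851), a cytokine made mostly by leukocytes, had no peak of its own. Its 3 peaks, 14.9, 29.9 and 37.0 kb from its closest TSS, were the LIF peaks with signal values of 40.7, 94.2 and 143.7. All lay downstream of OSM and were closer to LIF. With the distance set to 10 kb, OSM had 0 peaks and LIF 1, so that the count at OSM rests on the 50 kb window.

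Among the receptor genes, IL6R (chromosome 1, 154405193 to 154469450, plus strand), which encodes the IL-6 receptor subunit that binds the ligand, had 2 peaks, both in introns. Their summits lay 26.5 and 41.1 kb downstream of the canonical TSS, with signal values of 129.6 and 102.4. The first was 2462 bp from the start of a shorter transcript, just inside the 2.5 kb limit. No summit was listed within 2.5 kb of the canonical start of IL6R, and neither peak held one of the motifs.

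IL6ST (chromosome 5, 55935095 to 55995022, minus strand), the gene of gp130, had 3 peaks, of which 2 were at the promoter. The summits at 55994653 and 55995261 lay 310 bp downstream and 298 bp upstream of the canonical TSS, on either side of it. The upstream one also lay in an exon of the lncRNA gene IL6ST-DT. Each of these promoter peaks carried 1 TEAD motif in the same orientation, centred 13 and 25 bp from its summit. The signal values were modest, 67.2 and 39.7, against a median of 68.1 over the list. The other summit, 45.2 kb upstream within a lncRNA intron, had a signal value of 57.0 and no motif. No IL6ST peak exceeded the median signal value of the list, so that the gene had 0 peaks when only those were kept.

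LIFR (chromosome 5, 38474668 to 38608354, minus strand), the receptor subunit for LIF, had 12 peaks, a count reached by 0.694% of protein-coding genes. Its window of 219.1 kb was also longer than the median of 112.4 kb. Per 100 kb of window the density was 5.48 summits against a median of 0.666 over protein-coding genes, and 1.15% of them were as dense or denser. With only the canonical TSS counted, LIFR had 7 peaks. No summit lay within 2.5 kb of that TSS, and the closest, with a signal value of 197.8, lay 6536 bp downstream in an intron.

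The LIFR peaks fell into 3 stretches. Around the outermost annotated starts, 4 summits stood at 38595507, 38603923, 38607613 and 38608385, with signal values of 102.3, 64.2, 100.3 and 81.5. All 4 also lay in the lncRNA gene LIFR-AS1, those at 38607613 and 38608385 in its exons. The first and last of the 4 were 103 and 31 bp upstream of annotated LIFR starts. The one at 38607613, 741 bp downstream of a LIFR start, held the AP-1 motif shown above. The inner part of LIFR held the peak of 197.8 and 3 further intronic summits with signal values of 106.0, 72.5 and 18.8. Of these, 106.0 and 72.5 carried a TEAD motif, and the peak of 18.8, the weakest of the 32, overlapped the one of 72.5 and was the only one of the 32 with a q-value above the lowest in the list (0.00424).

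The last LIFR stretch lay beyond the 3′ end of the gene. Its 4 summits, between 20.8 and 24.9 kb from the closest LIFR TSS, had signal values of 293.0, 51.9, 51.5 and 210.9. Here the closest protein-coding TSS belonged to EGFLAM, which encodes an extracellular matrix protein, at 1733 to 5824 bp. The summits of 293.0 and 51.9 shared an interval and lay in a UTR of EGFLAM. The strongest peak counted for LIFR was therefore nearer to another gene, and 8 of the 12 remained with LIFR when each summit was given to its closest protein-coding TSS.

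OSMR (chromosome 5, 38845858 to 38945596, plus strand), the receptor subunit for oncostatin M, had 7 peaks, and OSMR was the gene with the closest protein-coding TSS for all of them. Its median signal value, 225.8, was the highest of the 8 genes. The promoter peak (summit 38845903, signal value 238.9) lay 109 bp upstream of the canonical TSS, in the UTR of another transcript, with 67.7% of G and C. The intronic peak 8268 bp downstream of the canonical TSS had a signal value of 488.6, rank 152 of the list. A second intronic peak, 26.4 kb downstream, had 100.6 and an AP-1 motif.

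Upstream of OSMR, 3 summits stood within 1488 bp of each other, 37.6 to 39.1 kb from the canonical TSS. They had signal values of 300.3, 67.4 and 225.8 and lay in an intron of OSMR-DT, a divergent lncRNA gene. The first held 2 AP-1 motifs, the second 1 AP-1 motif and the third a TEAD motif centred 11 bp from its summit. Another upstream summit, 18.3 kb from the canonical TSS in the same lncRNA gene, had 72.7 and an AP-1 motif. With the distance set to 10 kb OSMR had 3 peaks, and with 100 kb 13.

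**Figure D2:**
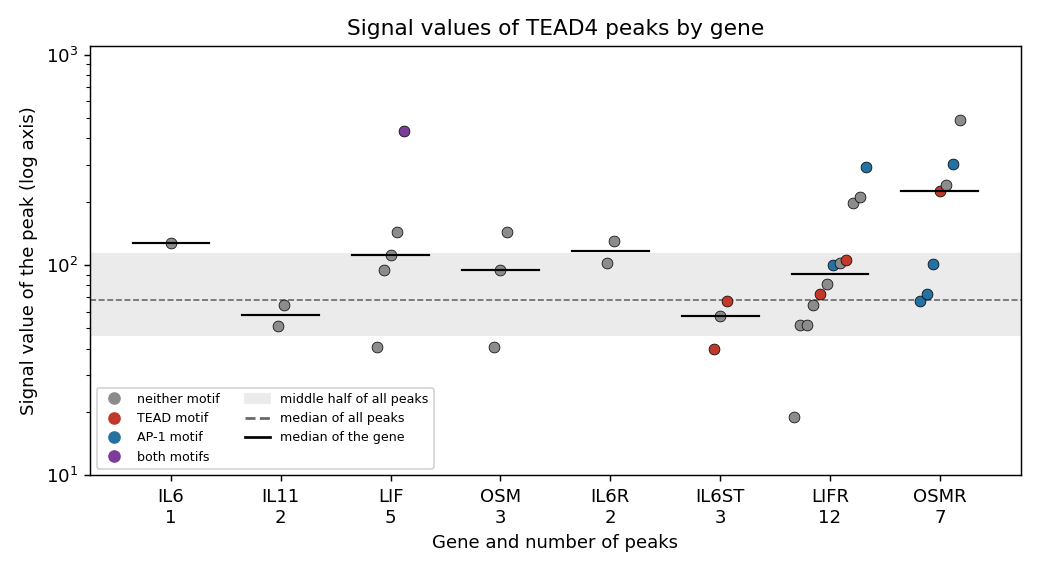
Signal value of each TEAD4 peak by gene, on a log axis, with the number of peaks under each gene. Points are peaks, coloured by motif, black bars are medians per gene, the dashed line is the median of all 21113 peaks (68.1) and the band their range from 46.1 to 113.6 (lower to upper quartile). Both IL11 peaks and all 3 IL6ST peaks lie under the dashed line, and 4 of the 7 OSMR peaks lie among the strongest 10% of the list.

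Over the 32 peaks the signal value ran from 18.8 to 488.6 with a median of 100.5. Over the whole list it ran from 6.57 to 1074 with a median of 68.1. The interval of the median over the 32 peaks, 67.2 to 129.6, included 68.1, so that no difference in median was detectable. That interval covers counting error only, and neighbouring peaks are not independent. A signal value above the median of the list was found for 21 of the 32, and 8 were among the strongest 10% of the list. The 8 were 4 peaks of OSMR, 3 of LIFR and 1 of LIF. Of those counted for LIFR, the peaks of 293.0 and 210.9 were closer to a TSS of EGFLAM. The medians per gene went from 57.0 at IL6ST and 58.0 at IL11 through 90.9 at LIFR, 94.2 at OSM, 111.7 at LIF, 116.0 at IL6R and 127.7 at IL6 to 225.8 at OSMR. All values of IL11 and IL6ST lay below those of IL6R and IL6, and the ranges of LIF, LIFR and OSMR overlapped. The IDR score, which rates how well the rank of a peak repeats between the 2 replicates, was at its highest value of 1000 in 27 of the 32 peaks (84.4%) and in 76.1% of all peaks. The other 5 peaks had scores between 901 and 984, above the lowest score of 830 in the list. These 2 replicates were kept because they agreed, so that the score does not measure repeatability over all 3.

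A summit within 2.5 kb of any of its TSSs was found for 5 of the 8 genes, IL11, IL6R, IL6ST, LIFR and OSMR, where 16.6% of protein-coding genes had one. Counting the canonical TSS only, the number was 3 of 8 (IL11, IL6ST and OSMR), where 11.0% of protein-coding genes had one. Taken by peak, 12 of 32 summits (37.5%) lay within 2.5 kb of a TSS of some protein-coding gene, as did 18.9% of all summits, and 9 of these 12 were near a TSS of the IL-6 family gene itself. By contrast, 14 of the 32 peaks lay over 10 kb from every TSS of their gene. The rule took only summits in or near the 8 genes, whereas the whole list was not limited in this way. The shares of 37.5% and 18.9% are therefore not like for like, and no enrichment near TSSs can be read from them. Genes with several transcripts have more TSSs to be near to. LIFR has 8 annotated TSSs, IL6R 8, IL6ST 21 and OSMR 5, and the ligand genes 2 to 7.

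The TEAD motif was found in 6 of the 32 peaks (18.8%, Wilson 95% interval 8.89 to 35.3%), and in 23.0% of all peaks. The 6 were 2 peaks each of IL6ST and LIFR and 1 each of LIF and OSMR. The AP-1 motif was found in 7 of the 32 (21.9%, interval 11.0 to 38.8%), and in 25.4% of all peaks, with 4 of the 7 at OSMR. Both shares were within their counting intervals of the share over the whole list, so that no difference from other TEAD4 peaks was detectable with 32 peaks. The intervals cover counting error only, and neighbouring peaks are not independent. Both motifs occurred together in 1 peak, where 4.49% of all peaks had both, and 20 peaks (62.5%) had neither, where 56.1% of all peaks had neither. No peak of IL6, IL11, OSM or IL6R held one of the motifs. In the 6 peaks with a TEAD motif, its centre was 11 to 74 bp from the summit.

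The RefSeq promoter sequences (GRCh38.p14, 300 bases around each start) included 8 entries for 6 of the genes, 3 of them for LIFR. A TEAD4 peak overlapped 3 of these, at IL6ST, at OSMR and at one start of LIFR, and the other 5 had no peak. The motif ACATTCC was in none of the 8, where 3.46% of 35116 promoters held it on either strand. The AP-1 motif was in 2 of the 8, those of IL6R and IL11, where 4.95% of promoters held it, and neither of these promoters was covered by a peak. The 2 TEAD motifs in the IL6ST peaks lay outside its promoter sequence, one on each side.

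The other genes of the pathway were counted by the same rule, as 18 genes listed by role, which are not the whole list, so that the shares hold for these genes only. Of the 18, 12 had at least 1 peak, against the 56.2% of all protein-coding genes, and 3 had a summit within 2.5 kb of a TSS, against the 16.6%. The 6 genes counted for signal transduction and feedback each had a peak. JAK1, JAK2 and TYK2, the kinases bound to the receptors, had 4, 1 and 2, the transcription factor STAT3 had 3, and PTPN11, a phosphatase that links the receptors to the MAPK pathway, had 2. SOCS3, the feedback inhibitor of gp130 signalling, had 6, the strongest with a signal value of 227.5, and its closest summit was 2686 bp from a TSS. Both genes of receptor shedding had a peak, with 3 at ADAM10 and 1 at ADAM17, proteases that release the IL-6 receptor from the cell surface.

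Ligand and receptor genes of that list had 4 and 2 peaks in all, and the genes are too few for a comparison between roles. Of the 6 genes counted for ligands and their partners, 3 had a peak, near the share of 56.2% over all protein-coding genes. CTF1 and CLCF1, the genes of cardiotrophin-1 and cardiotrophin-like cytokine factor 1, each had 1 at 169 and 258 bp from a TSS, with signal values of 55.3 and 98.7, and CNTF had 2. IL27, EBI3 and IL31 had none. Of 4 receptor genes, IL27RA had 2 peaks, and IL11RA, CNTFR and IL31RA had none listed, so that the receptor specific to IL-11 and the gene next to IL6ST on chromosome 5 both lacked a listed peak. Among the signal transduction genes, PTPN11 had a summit 321 bp from a TSS with a signal value of 161.4. The list holds only peaks that passed the authors' threshold, so that no peak means none in the list.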

How the data were processed

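Per the labels and the study's methods, chromatin of DMSO-treated LX-2 cells was sequenced from 3 TEAD4 ChIP samples and 2 inputs. Alignment by the authors was made with Chromap against hg38, followed by the ENCODE IDR pipeline. Only replicates 1 and 3, which were concordant in it, were kept. The peak caller is not given in the sources used here. In the deposited list of 21113 peaks, the signal value, the scaled IDR score and the −log10 q-value are the authors' values per peak, a p-value column holds −1 throughout, and the scale of the signal value is not stated. Column meanings were read from the layout. Depth per sample is unknown, and no value exists per replicate, so no test was made between samples. Peaks are described beside the whole list and all protein-coding genes.

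Summits (start plus offset) were assigned with GENCODE release 44, and all peaks ended inside the hg38 chromosomes of the reference. Gene bodies, all TSSs and the Ensembl canonical TSS came from that annotation. Motifs were searched within 100 bp of the summit on both strands. The code was checked on simulated peaks and sequences. Python 3.11.15, numpy 2.4.6, pandas 2.3.3, scipy 1.17.1, pysam 0.24.0 and matplotlib 3.10.9 were used.

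The 8 genes, the pathway genes and the rules were chosen with earlier results of these data known. Of the pathway list, 18 genes are counted, and 2 are not reported here, left out for a reason that does not rest on their values. The genes named were the 8, the genes with the closest protein-coding TSS to their summits, and pathway genes. Pathway genes without a summit within 2.5 kb of a TSS are also named with their counts, and SOCS3 with its values, a choice made after these were seen. Alternatives changed the distance, the set of peaks, merging, the TSSs, the gene that claims a summit, and the motif and its window.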

Additional observations from a re-analysis of the deposited data

How the results depend on the processing

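Of 34 alternatives to the counts, median and motif shares over all 32 peaks, 30 stayed within 1.5 times the count or within the interval of the value. The number of peaks moved to 19 with a distance of 10 kb and to 21 with only peaks above the median signal value. The share of peaks with a TEAD motif moved to 40.6% with the shorter motif CATTCC, which 46.8% of all peaks held, and the share with an AP-1 motif to 10.5% with a distance of 10 kb. The number of genes with a peak was 7 at 10 kb, without OSM, and 6 with only peaks above the median signal value, without IL11 and IL6ST. It was also 6, without IL6 and OSM, when a summit counted only for the gene with the closest protein-coding TSS. The median signal value ran from 87.6 at 100 kb to 127.7 with only peaks above the median of the list. The rise to 127.7 follows from dropping the weaker peaks, so that this alternative, counted among the 30, is no check on the median. Of 64 alternatives to the counts of single genes, 14 moved by over 1.5 times. No paired analysis was possible because replicates 1 and 3 share each listed value, and neither could be left out in turn. Depth per sample is unknown, so its effect on which peaks were listed could not be examined.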

Other observations

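LIFR and OSMR lie on the same arm of chromosome 5, with 237.5 kb between their gene bodies. The 137.5 kb between their windows held 7 further summits that the 50 kb rule gives to neither gene, with signal values from 51.4 to 286.8 and a median of 181.2. Of these, 3 held a TEAD motif and 1 an AP-1 motif within 100 bp of the summit. They were counted after the peaks of both genes were seen.

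In the strongest LIF peak the AP-1 and TEAD motifs were 3 bases apart. Over the 948 peaks of the list with both motifs, the closest pair was a median of 33 bases apart, it was 3 bases apart in 18 peaks, and it was at most 10 bases apart in 189 (19.9%). This spacing was examined after the LIF sequence was seen.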
